A study of Oryza sativa Japonica Group with 29 samples.

Results

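The 10 genes of the rice circadian clock described here are LHY, the pseudo-response regulators PRR1, PRR37, PRR59, PRR73 and PRR95, GI, LUX and 2 copies of ELF3. They were taken by locus identifier, and all 10 were found among the 55986 loci listed in each table of RNA levels. All 10 also passed the filter on low values that left 23699 loci for testing. Levels come from RNA sequencing of 11 root libraries of 25-day-old rice seedlings (Oryza sativa Japonica Group) at the 4-leaf stage in hydroponic culture, in a study of OsNMCP1, a plant protein of the nuclear lamina. OE plants over-express OsNMCP1 and WT plants are the rice cultivar ZH11. The groups were OE drought (3 libraries), WT drought (3 libraries), OE normal (2 libraries) and WT normal (3 libraries). Drought was 3 h without water supply before sampling, and normal plants had no such treatment. The sources used here do not give the promoter of the transgene or the number of transgenic lines. The replicates are called biological, with no word on separate plants or cultures, and the p-values measure only how far these libraries spread. The labels give no hour of harvest for any group. For the 6 drought libraries they give genomic DNA as the molecule, while titles and extraction text name RNA, and the libraries were taken as RNA.

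The plant clock is a loop of repressors that follow each other through the day. LHY is a MYB-type transcription factor that peaks at dawn and represses the genes of the evening. The pseudo-response regulators repress LHY in a wave, with PRR73 and PRR37 early in the day, PRR95 and PRR59 later, and PRR1 (TOC1) at dusk. GI, a large protein that stabilises other clock proteins, peaks late in the day. LUX, a GARP-type transcription factor, joins ELF3 in the evening complex, which represses daytime genes at night. These phases are known from rice leaves and seedlings, and from Arabidopsis for much of the mechanism. Roots of Arabidopsis run a clock that is partly set by the shoot.

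The loci lie on 8 chromosomes, with coordinates as the tables give them, on a genome build that the sources used here do not name. LHY (LOC_Os08g06110) spans 3365730 to 3373434 on chromosome 8 and PRR1 (LOC_Os02g40510) spans 24569294 to 24572560 on chromosome 2. PRR37 (LOC_Os07g49460) lies at 29616705 to 29629223 on chromosome 7, and PRR73 (LOC_Os03g17570) at 9759479 to 9768690 on chromosome 3. PRR95 (LOC_Os09g36220) occupies 20885172 to 20889843 on chromosome 9 and PRR59 (LOC_Os11g05930) occupies 2788996 to 2793735 on chromosome 11. Chromosome 1 carries GI (LOC_Os01g08700) at 4329152 to 4338486, the second ELF3 copy, ELF3-2 (LOC_Os01g38530), at 21637031 to 21643111, and LUX (LOC_Os01g74020) at 42874207 to 42875515. The first ELF3 copy, ELF3-1 (LOC_Os06g05060), lies at 2234119 to 2239162 on chromosome 6. LHY, PRR1, PRR37 and PRR59 are on the plus strand and the other six on the minus strand. None of the 10 overlaps another listed locus, and the nearest neighbour is 148 bases away, beside PRR73, on the other strand.

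Levels are TPM, a share of all transcripts that is scaled for gene length and can be compared between genes. A difference is the difference of mean log2(TPM + 1) between 2 groups with its standard error (SE), which understates the change of weakly expressed genes. A gene was called at an adjusted p under 0.05 in limma over 23699 genes. Implied depth was 7.0 to 7.14 gigabases in OE drought, 8.23 to 11.95 in WT drought, 5.79 to 7.34 in OE normal and 8.56 to 9.29 in WT normal. The over-expressed gene checked the genotype labels, with OsNMCP1 (NMCP1) at 347 to 452 TPM in OE drought against 28.1 to 46.4 in WT drought, and at 167 to 184 TPM in OE normal against 35.5 to 37.6 in WT normal. Drought libraries of 1 group differed more from each other than normal ones, with a median SD of log2(TPM + 1) of 0.253 in OE drought and 0.270 in WT drought, against 0.0749 in OE normal and 0.0737 in WT normal. The 4 named root genes summed to 103 to 272 TPM in OE drought, 625 to 767 in WT drought, 1848 to 2005 in OE normal and 2058 to 2101 in WT normal. They are the silicon transporter genes LSI1 and LSI2, the phosphate exporter gene PHO1-2 and the sodium transporter gene HKT8. None was at 0 in any group, and LSI1 and LSI2 make up most of the sum. With drought all 4 were called lower in OE, while in WT 2 were called lower and 2 were not called. HKT8 averaged 12.4 TPM in WT drought against 10.7 in WT normal, and PHO1-2 averaged 121 against 151. The 3 named shoot genes (CAB1R, CAB2R and RBCS) summed to 43.6 to 186 TPM in OE drought, 317 to 592 in WT drought, 328 to 330 in OE normal and 799 to 1115 in WT normal. The list held 5 shoot loci, and those that did not pass the naming rule given below are not in the sum. Of these, 1 had a higher mean after drought, at 18.9 TPM in OE drought and 31.2 in WT drought. Its means were 8.87 TPM in OE normal and 11.7 in WT normal. Another had a lower mean, 6.32 TPM in OE drought and 11.8 in WT drought. It averaged 27.9 TPM in OE normal and 48.5 in WT normal. Both sums moved with the groups, and their part in the results below was not tested. In bulk roots, fewer cells of a type and less RNA per cell cannot be told apart.

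**Figure D1:**
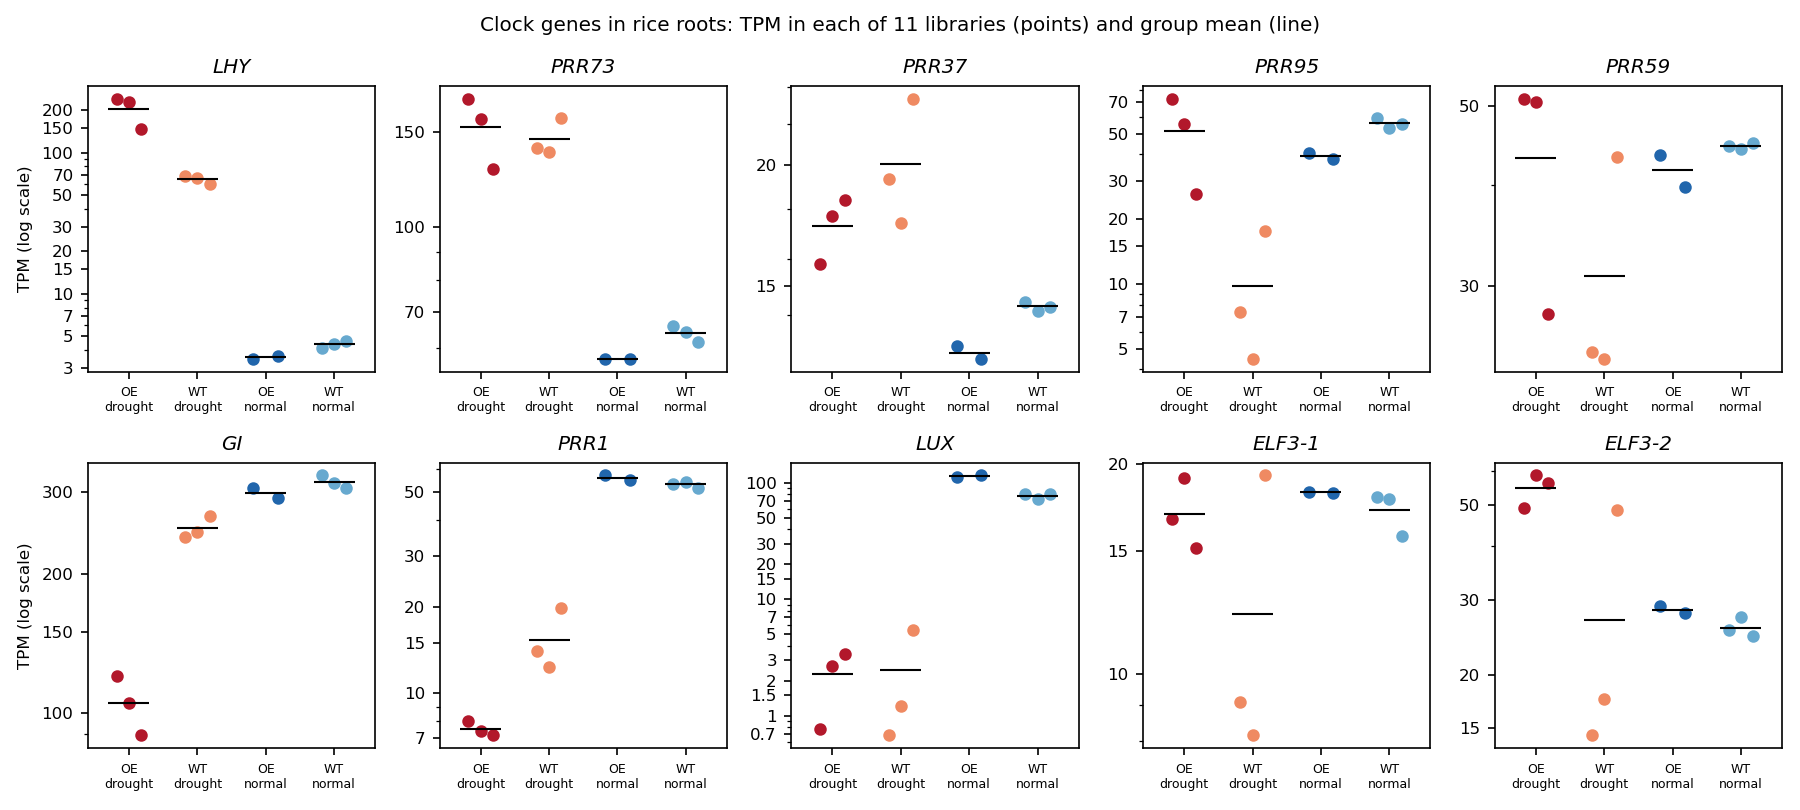
TPM (log scale, 1 scale per gene) of the 10 clock genes in each of the 11 libraries. Points are libraries and lines are group means (n = 3 in OE drought, WT drought and WT normal, n = 2 in OE normal). LHY stands highest in OE drought and lowest in OE normal, while PRR1 and LUX are high in both normal groups and low in both drought groups.

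The first comparison was drought against normal within each genotype. In both genotypes the dawn gene LHY and the early day gene PRR73 rose, and the dusk and evening genes PRR1 and LUX fell. The largest change in mean level was that of LHY in OE, 57.8-fold. GI also fell in both, though in WT its fall was no larger than the shift of all genes. PRR95 fell in WT and was not called in OE, and ELF3-2 rose in OE and was not called in WT. In OE, 3 members rose, 3 fell and 4 were not called, while 19.5% of all tested genes were called higher and 49% lower. In WT, 3 rose, 4 fell and 3 were not called, while 20% of all tested genes were called higher and 44.4% lower. Of the 10 genes, 7 did not overlap between drought and normal in OE and 8 in WT, beside 82.8% and 73.6% of all tested genes. The number of clock genes called, 6 of 10 in OE and 7 of 10 in WT, was thus close to the 68.4% and 64.3% of all genes called. Leaving out 1 library gave 5 to 10 clock genes called in WT, with all 10 called without WT drought replicate 3. Over all 23699 tested genes the same WT fits called 12055 to 18079, beside 15245 with all libraries. The median difference was 0.13 for the members in OE and -0.44 in WT, beside medians over all tested genes of -0.56 in OE and -0.35 in WT. The median of absolute differences was 1.15 for the members in OE and 0.87 in WT, beside 0.94 and 0.72 over all tested genes. The share of higher genes among all calls depended on the scaling, at 28.5% in OE and 31.0% in WT on the TPM scale and 52.9% and 49.7% under median-ratio scaling.

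LHY had 240.4, 229 and 147 TPM in the OE drought libraries, against 3.46 and 3.64 TPM in the OE normal libraries. In WT the level was 68.7, 66.1 and 60.4 TPM after drought, against 4.11, 4.43 and 4.65 TPM in normal conditions. Every drought library stood above every normal library, and every OE drought library above every WT drought library. The level averaged 206 ± 50.7 TPM in OE drought and 3.55 ± 0.127 TPM in OE normal (SD, n = 3 and 2), a 57.8-fold higher mean. It averaged 65.1 ± 4.21 TPM in WT drought and 4.399 ± 0.272 TPM in WT normal (SD, n = 3 each), a 14.8-fold higher mean. On the log2 scale LHY rose by 5.47 in OE (SE 0.236, adjusted p = 5.94e-05) and by 3.61 in WT (SE 0.106, adjusted p = 3.82e-05). These differences were larger in size than those of 99.6% of tested genes in OE and 98.2% in WT.

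PRR1, the dusk gene that represses LHY, moved the other way. It had 8.03, 7.43 and 7.16 TPM in OE drought, against 57.0 and 55.0 TPM in OE normal. Levels in WT were 14.0, 12.4 and 19.7 TPM after drought, against 53.3, 54.3 and 51.6 TPM in normal conditions. The drought and normal ranges did not overlap in either genotype. PRR1 fell by 2.74 in OE (SE 0.14, adjusted p = 9.00e-05), to a mean 7.43 times lower than in OE normal. In WT it fell by 1.75 (SE 0.175, adjusted p = 0.000499), to a mean 3.45 times lower than in WT normal.

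LUX, the DNA-binding part of the evening complex, had the lowest mean level of the 10 genes in both drought groups. It had 0.772, 2.69 and 3.38 TPM in OE drought, against 112 and 116 TPM in OE normal. The WT libraries held 0.681, 1.22 and 5.49 TPM after drought, against 80.0, 73.2 and 80.4 TPM in normal conditions. LUX fell by 5.23 in OE (SE 0.397, adjusted p = 0.000255) and fell by 4.77 in WT (SE 0.492, adjusted p = 0.000552), more in size than 99.5% and 99.4% of tested genes. Its mean was 49.8 times lower in OE drought than in OE normal and 31.6 times lower in WT drought than in WT normal. Without WT drought replicate 3 the WT mean after drought was 0.952 TPM, 81.8 times lower than in WT normal. The drought libraries of each group differed several-fold from each other, and WT drought replicate 3 was the highest of the 6.

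The ELF3 copies, which bridge the proteins of the evening complex, did not follow LUX. ELF3-1 had 16.7, 19.1 and 15.1 TPM in OE drought, against 18.2 TPM in each of the OE normal libraries. WT drought libraries had 9.10, 8.15 and 19.3 TPM, against 17.97, 17.8 and 15.7 TPM in WT normal libraries. WT drought replicates 1 and 2 lay below all other libraries, and replicate 3 lay above them all. The differences were -0.10 in OE (95% interval -0.49 to 0.29, adjusted p = 0.584) and -0.56 in WT (95% interval -1.32 to 0.20, adjusted p = 0.16), and neither was called. ELF3-2 had 49.3, 58.7 and 56.3 TPM in OE drought, against 29.03 and 27.9 TPM in OE normal. In WT the values were 14.4, 17.6 and 48.7 TPM after drought, against 25.4, 27.3 and 24.6 TPM in normal conditions. ELF3-2 rose by 0.92 in OE (SE 0.135, adjusted p = 0.00206), a call lost when all 11 libraries shared 1 spread (adjusted p = 0.0567). In WT the difference was -0.14 (95% interval -1.20 to 0.92, adjusted p = 0.79), with replicate 3 above the normal libraries and replicates 1 and 2 below them. Without WT drought replicate 3, ELF3-1 and ELF3-2 were called lower in WT, by 0.92 (adjusted p = 0.000693) and 0.66 (adjusted p = 0.0028) on the log2 scale.

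Among the pseudo-response regulators of the daytime, PRR73 rose in both genotypes. It had 172, 158 and 128 TPM in OE drought, against 57.3 and 57.4 TPM in OE normal. WT roots had 140.0, 138 and 159 TPM after drought, against 66.0, 64.1 and 61.6 TPM in normal conditions. PRR73 rose by 1.39 in OE (SE 0.162, adjusted p = 0.00095) and by 1.17 in WT (SE 0.0928, adjusted p = 0.000257). Its relative PRR37, which also delays flowering in long days, had 15.8, 17.7 and 18.4 TPM in OE drought, against 13.0 and 12.6 TPM in OE normal. WT roots held 19.3, 17.4 and 23.4 TPM after drought, against 14.5, 14.2 and 14.3 TPM in normal conditions. All drought libraries were above all normal ones, by little. PRR37 rose by 0.45 in WT (SE 0.133, adjusted p = 0.0254), a call lost without any one of the WT normal libraries (adjusted p up to 0.0861). In OE the difference was 0.40 (95% interval 0.04 to 0.77, adjusted p = 0.0525), and under median-ratio scaling it was called, at 1.03 (adjusted p = 0.00249).

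PRR95 had unlike drought differences in the genotypes. It had 72.4, 55.3 and 26.2 TPM in OE drought, against 40.4 and 37.9 TPM in OE normal. Levels were 7.36, 4.48 and 17.6 TPM in WT drought, against 58.9, 53.2 and 55.4 TPM in WT normal. The OE drought libraries lay on both sides of the OE normal ones, while all WT drought libraries lay below all WT normal ones. PRR95 fell by 2.58 in WT (SE 0.429, adjusted p = 0.00287), to a mean 5.70 times lower than in WT normal, or 9.43 times lower without WT drought replicate 3. In OE the difference was 0.27 (95% interval -0.74 to 1.28, adjusted p = 0.58), and without OE drought replicate 3 it was called higher, at 0.68 (adjusted p = 0.0145). PRR59, the close relative of PRR95, had 51.0, 50.6 and 27.7 TPM in OE drought, against 43.5 and 39.8 TPM in OE normal. For WT the levels were 24.9, 24.4 and 43.3 TPM after drought, against 44.7, 44.3 and 45.1 TPM in normal conditions. PRR59 was called in neither genotype, at -0.00 in OE (95% interval -0.71 to 0.71, adjusted p = 0.994) and -0.57 in WT (95% interval -1.13 to -0.01, adjusted p = 0.068). Without WT drought replicate 3 it was called lower in WT, by 0.83 (adjusted p = 0.000164).

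GI was the most abundant clock transcript in all groups but OE drought. It had 120.4, 105 and 89.6 TPM in OE drought, against 306 and 292 TPM in OE normal. In WT the libraries had 239.6, 246 and 266.5 TPM after drought, against 326, 314 and 306 TPM in normal conditions. GI fell by 1.51 in OE (SE 0.161, adjusted p = 0.000723), to a mean 2.85 times lower than in OE normal. In WT it fell by 0.33 (SE 0.0851, adjusted p = 0.0155), and this call was lost without any one of the WT normal libraries (adjusted p up to 0.085). Relative to the median of all genes GI stood at 0.02 in WT and -0.95 in OE. Under median-ratio scaling, which removes the shift of all genes, its WT difference was 0.07 (adjusted p = 0.53), of opposite sign. On the same footing LHY stood at 6.03 in OE and 3.97 in WT, PRR1 at -2.18 and -1.39, and LUX at -4.66 and -4.41.

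**Figure D2:**
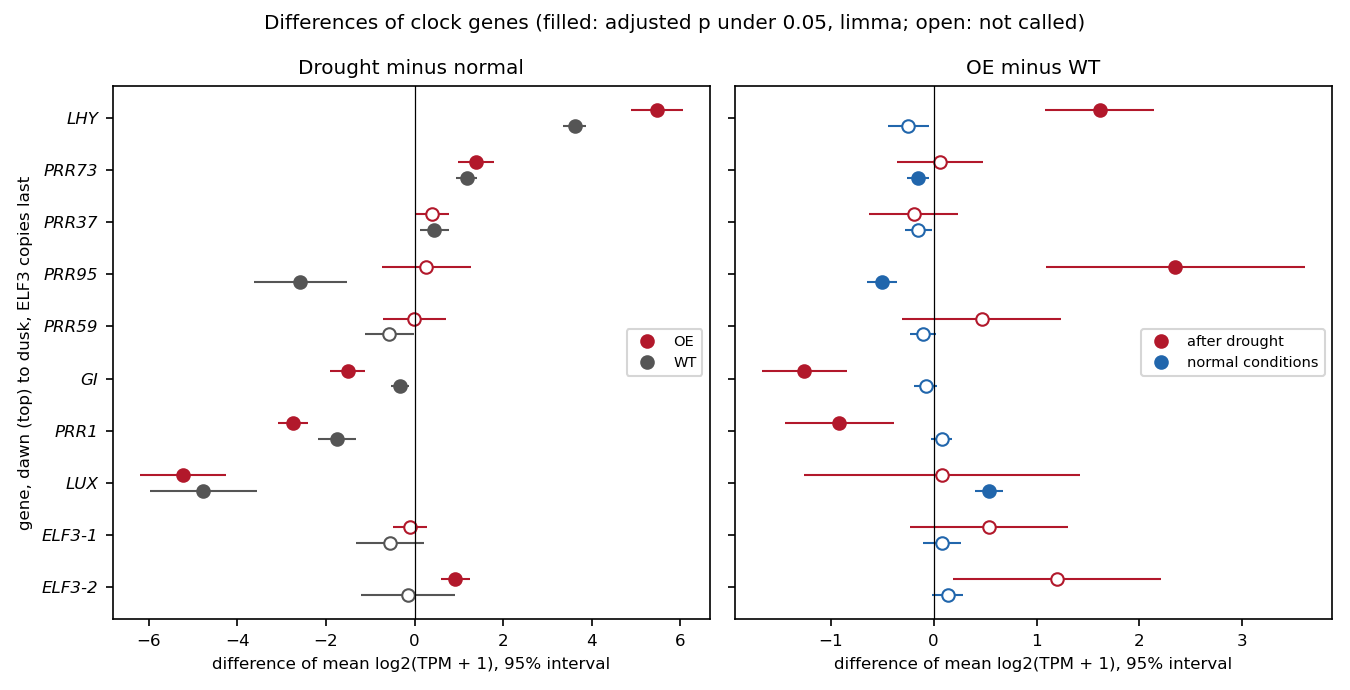
Differences of mean log2(TPM + 1) with 95% intervals for the 10 clock genes, drought minus normal (left, OE and WT) and OE minus WT (right, after drought and in normal conditions). Filled points passed an adjusted p under 0.05 and open points did not. LHY lies at 5.47 in OE and 3.61 in WT in the left panel, and the right panel spans a smaller range.

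The second comparison was OE against WT after drought, and asked whether the same 3 h without water left the clock genes at different levels in the 2 genotypes. LHY and PRR95 were higher in OE and PRR1 and GI were lower. These 4 of 10 were called, 2 in each direction, while 14.6% of all tested genes were called (5.24% higher and 9.38% lower). Among all calls 35.9% were higher on the TPM scale and 59.3% under median-ratio scaling. The libraries did not overlap for 5 of the 10 genes, beside 40% of all tested genes. The median difference of the members was 0.27, beside -0.20 over all tested genes, and the median absolute difference was 0.73, beside 0.44.

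LHY was higher in OE drought by 1.61 (SE 0.222, adjusted p = 0.00987), with a mean 3.16 times that of WT drought. GI was lower in OE drought by 1.25 on the log2 scale (difference -1.25, SE 0.174, adjusted p = 0.00987), as WT drought had a mean 2.38 times higher. Both calls held whichever of the 6 libraries was left out, with adjusted p up to 0.0494 for LHY and 0.0499 for GI. PRR1 differed by -0.92 (SE 0.223, adjusted p = 0.0406), with 7.16 to 8.03 TPM in OE drought, against 12.4 to 19.7 TPM in WT drought. Its call was lost in 5 of those 6 fits (adjusted p up to 0.135; it held only without WT drought replicate 3), under median-ratio scaling (adjusted p = 0.0727) and with no filter (adjusted p = 0.0578). PRR95 differed by 2.35 (SE 0.53, adjusted p = 0.0347), with 26.2 to 72.4 TPM in OE drought, against 4.48 to 17.6 TPM in WT drought. That call was lost without OE drought replicate 1 or 2 or WT drought replicate 1 or 2 (adjusted p up to 0.119), and with no filter (adjusted p = 0.0801). The ranges of the 2 genotypes did not overlap for any of these genes.

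ELF3-2 also stood higher in all OE drought libraries than in any WT drought library, at 49.3 to 58.7 TPM against 14.4 to 48.7 TPM, but was not called (difference 1.20, adjusted p = 0.0965). It was called when all 11 libraries shared 1 spread (adjusted p = 0.0226). The remaining 5 genes overlapped between genotypes. Their differences were 0.06 for PRR73 (95% interval -0.36 to 0.48), -0.19 for PRR37 (-0.63 to 0.24), 0.47 for PRR59 (-0.30 to 1.24), 0.54 for ELF3-1 (-0.23 to 1.31) and 0.08 for LUX (-1.26 to 1.42). The interval of LUX is the widest of these, and its drought libraries differed several-fold within each genotype. Without WT drought replicate 3, 6 of the 10 genes were called, with ELF3-1 at 0.90 (adjusted p = 0.0217) and ELF3-2 at 1.72 (adjusted p = 0.00377) added. Calls over all 23699 tested genes also rose in that fit, from 3464 to 6191.

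**Figure D3:**
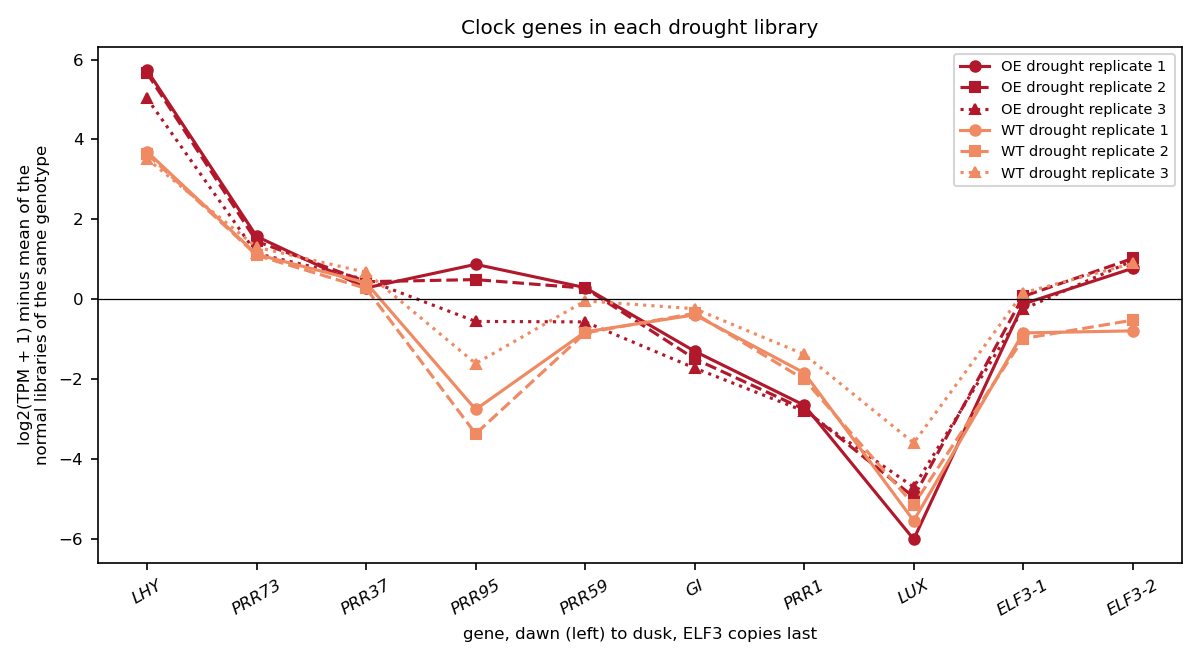
Clock genes in each of the 6 drought libraries, as log2(TPM + 1) minus the mean of the normal libraries of the same genotype. The OE lines (dark) run above the WT lines (light) at LHY and PRR95 and below them at GI and PRR1, and WT drought replicate 3 (dotted, light) lies with the OE libraries at ELF3-1 and ELF3-2.

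Replicate 3 of each drought group differed from replicates 1 and 2 of its group at several clock genes. In WT drought replicate 3, LUX was 5.76 times, ELF3-2 3.04 times, PRR95 2.96 times, ELF3-1 2.23 times and PRR59 1.76 times the mean of WT drought replicates 1 and 2. For 6 of the 10 genes this library was nearer to the mean of all OE drought libraries than to that of WT drought replicates 1 and 2. The same held for 44.1% of all tested genes. In OE drought replicate 3, PRR95 was 2.43 times, PRR59 1.83 times and LHY 1.59 times lower than the mean of OE drought replicates 1 and 2. LUX was 1.96 times higher, but there replicate 1 was the low one, at 0.772 TPM against 2.69 and 3.38 in replicates 2 and 3. OE drought replicate 3 was nearer to the mean of all WT drought libraries than to that of OE drought replicates 1 and 2 for 4 of the 10 genes. This held for 41% of all tested genes. With both left out, a choice made after these values were seen, 7 of the 10 genes were called between OE and WT after drought. That fit also called more of all tested genes than the 3464 of 23699 called with all libraries, as counted below.

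The third comparison, OE against WT in normal conditions, gave small differences. PRR95 and PRR73 were lower in OE and LUX was higher, 3 of 10, while 30% of all tested genes were called (17.8% higher and 12.2% lower). The libraries did not overlap for 9 of the 10 genes, beside 57% of all tested genes. The median difference of the members was -0.09, beside 0.03 over all tested genes. PRR95 fell to 40.4 and 37.9 TPM in OE normal, against 58.9, 53.2 and 55.4 TPM in WT normal (difference -0.50, SE 0.0574, adjusted p = 0.00385). LUX stood at 112 and 116 TPM in OE normal, against 73.2 to 80.4 TPM in WT normal (difference 0.54, SE 0.0533, adjusted p = 0.00262). PRR73 differed by -0.15 (SE 0.041, adjusted p = 0.0453), and this call was lost whichever of the 5 libraries was left out (adjusted p 0.0605 to 0.134). None of the 3 was called when all 11 libraries shared 1 spread, with adjusted p of 0.858 to 0.877. The other seven had differences between -0.24 and 0.14. LHY was the largest of these, at -0.24 (95% interval -0.45 to -0.04, adjusted p = 0.0744).

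The difference between the drought responses of the genotypes was tested as an interaction, the OE response minus the WT response. It was positive for LHY, at 1.86 (SE 0.262, adjusted p = 0.00226), and for PRR95, at 2.85 (SE 0.654, adjusted p = 0.0184). It was negative for GI, at -1.18 (SE 0.182, adjusted p = 0.00359), and for PRR1, at -0.99 (SE 0.233, adjusted p = 0.0201). These are 4 of 10 genes, 2 positive and 2 negative, while 15.9% of all tested genes were called (4.6% positive and 11.3% negative). Of all calls 28.9% were positive on the TPM scale and 53.9% under median-ratio scaling. Without either OE normal library the interaction of PRR95 was not called (adjusted p up to 0.0801), nor was that of PRR1 (up to 0.094), which was also lost without WT normal replicate 1 or 3 and under median-ratio scaling (adjusted p = 0.054). Those of LHY and GI were called in all 11 fits that left out 1 library. LUX, whose responses were -5.23 in OE and -4.77 in WT, had an interaction of -0.46 (SE 0.700, adjusted p = 0.685). PRR73 had 0.21 (95% interval -0.20 to 0.63), and PRR37 had -0.05 (95% interval -0.48 to 0.39). Drought and genotype comparisons share libraries, so these values are not independent of those above.

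A check on the hour of harvest was made from the dawn gene LHY and the dusk gene PRR1, whose daily peaks lie on opposite sides of the day. The ratio of LHY to PRR1 in TPM was 29.9, 30.8 and 20.6 in OE drought and 4.90, 5.33 and 3.06 in WT drought. It was 0.0608 and 0.0662 in OE normal and 0.0771, 0.0816 and 0.0902 in WT normal. LHY exceeded PRR1 in all 6 drought libraries and PRR1 exceeded LHY in all 5 normal libraries, and the 4 groups did not overlap. Across the usual daily order the drought minus normal differences were positive for LHY and PRR73 and negative for GI, PRR1 and LUX in both genotypes, with the exception of GI in WT under median-ratio scaling. PRR37 stood at 0.40 in OE (not called) and 0.45 in WT. The other four were called in at most 1 genotype. PRR95 stood at 0.27 in OE (not called) and -2.58 in WT, and PRR59 at -0.00 and -0.57, neither called. Of the ELF3 copies, ELF3-2 rose in OE (0.92) and stood at -0.14 in WT, and ELF3-1 stood at -0.10 in OE and -0.56 in WT, the last 3 values not called. No hour of harvest is labelled, so the hour of sampling and the 3 h without water cannot be told apart for these genes. The drought and normal RNA libraries also carry separate runs of sample numbers and unlike molecule labels. Whatever else differed between these sets cannot be told apart from drought in any drought against normal comparison. Between OE drought and WT drought, whose ratios also differed, the hour and the genotype cannot be told apart either.

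**Figure D4:**
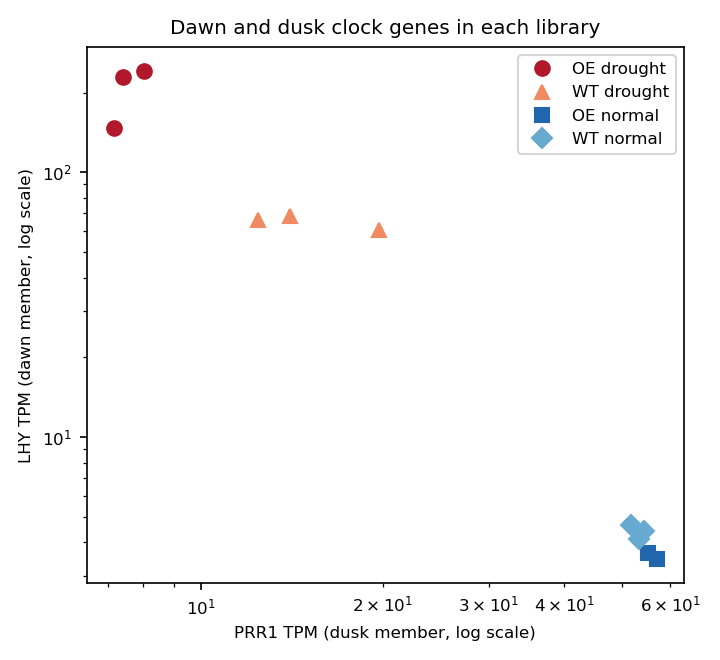
LHY against PRR1, both in TPM on log scales, in each of the 11 libraries. The 6 drought libraries lie at the upper left, with OE drought at 147 to 240.4 TPM of LHY and WT drought at 60.4 to 68.7, and the 5 normal libraries lie together at the lower right.

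The order of the clock genes by level changed with the groups. In OE drought the highest were LHY at 206 ± 50.7 TPM and PRR73 at 153 ± 22.6 TPM, whose ranges overlapped, then GI at 105 ± 15.4 TPM (SD, n = 3). ELF3-2, PRR95 and PRR59 followed with overlapping ranges, then PRR37 with ELF3-1, PRR1, and LUX last. In WT drought the order began with GI at 251 ± 14.0 TPM, PRR73 at 146 ± 11.5 TPM and LHY at 65.1 ± 4.21 TPM (SD, n = 3), all without overlap. Each of the next 7, from PRR59 down to LUX, overlapped with its neighbour. In OE normal GI stood at 299 ± 9.81 TPM and LUX at 114 ± 2.86 TPM (SD, n = 2), and in WT normal GI stood at 315 ± 10.3 TPM and LUX at 77.9 ± 4.06 TPM (SD, n = 3). LHY was the lowest of the 10 in both normal groups, below PRR37 and without overlap. PRR59 and PRR95 overlapped in OE normal, as PRR95 and PRR1 did in WT normal, and the other neighbours did not.

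Likeness between members was measured as the root mean square difference of their centred log2(TPM + 1) profiles over the 11 libraries, which share groups and so are no independent points. PRR59 and ELF3-1 were most alike, at 0.20, followed by PRR37 and PRR73 at 0.46 and the ELF3 copies at 0.47. LHY and LUX were least alike, at 4.79. The profiles were not scaled, so genes that varied little come out alike. PRR1 and LUX, which fell with drought in both genotypes by unlike amounts, stood at 1.48. Outside the 10 genes the locus nearest to PRR1 was LOC_Os03g02860, at 0.09, with means of 5.86 TPM in OE drought, 12.03 in WT drought, 41.9 in OE normal and 42.5 in WT normal. The locus nearest to GI was LOC_Os01g68160, at 0.12. Nearest to LHY was LOC_Os03g03370, at 0.35, with means of 322 TPM in OE drought, 153 in WT drought, 11.9 in OE normal and 11.98 in WT normal. Neither the tables nor the RefSeq gene table pairs these identifiers with a name.

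Other genes of light and day length were examined by list. Of 13 loci for light perception, 3 carried names by the rule used. Of these phytochrome genes, which encode red light receptors that set the clock, 2 fell with drought in OE and 3 in WT, while 49% and 44.4% of all tested genes were called lower. Over the 12 loci of the list that were tested, 7 were called lower and 0 higher in OE, and 9 lower and 1 higher in WT (limma, adjusted p under 0.05). PHYB had 7.17, 7.81 and 7.47 TPM in OE drought, against 17.9 and 17.7 TPM in OE normal (difference -1.15, adjusted p = 0.00142). In WT it had 12.5, 10.4 and 11.5 TPM after drought, against 16.40, 16.45 and 17.02 TPM in normal conditions (difference -0.50, adjusted p = 0.00924). All 3 named light-responsive genes fell with drought in both genotypes. Over all 5 loci of that list, 4 were called lower in each genotype, and the other one was not called in OE and was called higher in WT. The median difference of the 5 was -3.37 in OE and -3.04 in WT, beside -0.56 and -0.35 over all tested genes. The named ones are the chlorophyll synthesis genes PORA and PORB and the nitrate reductase gene NIA1. NIA1 had 2.40, 1.13 and 1.09 TPM in OE drought, against 33.7 and 35.3 TPM in OE normal, and 14.2, 6.49 and 1.51 TPM in WT drought, against 50.5, 56.8 and 52.1 TPM in WT normal.

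Between genotypes, none of the phytochrome genes was called after drought at the adjusted threshold, with unadjusted p of 0.0192 for PHYB, 0.179 for PHYA and 0.862 for PHYC. In normal conditions PHYC was lower in OE (difference -0.45, adjusted p = 0.016). PORB was lower in OE after drought (difference -1.41, adjusted p = 0.0399) and in normal conditions (difference -1.28, adjusted p = 0.00126), and NIA1 was lower in OE in normal conditions (difference -0.61, adjusted p = 0.00282). NIA1 was not called after drought (difference -1.41, adjusted p = 0.156). HD16, the casein kinase that phosphorylates flowering regulators, fell with drought in OE (difference -0.43, adjusted p = 0.0348), less than the median gene, and stood at 0.05 in WT (adjusted p = 0.621). HD16 was the only locus of 6 listed clock partners to pass the naming rule, and mean levels of the others moved in both directions with drought. Another partner locus averaged 1.62 TPM in OE drought against 65.3 in OE normal. Its WT means were 2.57 TPM after drought and 91.0 in normal conditions. A further partner had higher means after drought, at 7.11 against 5.24 TPM in OE and 6.45 against 5.63 in WT. Its higher WT mean rested on WT drought replicate 3, at 9.50 TPM. WT drought replicates 1 and 2 had 5.18 and 4.68 TPM, against 5.16 to 5.89 in WT normal. HD3A, a mobile flowering signal made in leaves, was listed at 0 in all 11 libraries. HD1, which acts downstream of GI in the control of flowering, was at 1.18 to 1.37 TPM in OE drought, 0.462 to 0.837 in WT drought, 0.333 to 0.352 in OE normal and 0.374 to 0.578 in WT normal. HD1 rose with drought in OE (difference 0.77, adjusted p = 0.0039), and its difference in WT was 0.11 (adjusted p = 0.412).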

How the data were processed

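Of the series, 11 RNA libraries of roots were used and 18 ATAC-seq samples were left out. Tools named in the submitters' processing notes are fastp, FastQC (0.11.8), STAR (1.5.2, as printed), SAMtools (1.9), StringTie (1.3.6) and DESeq2, without roles. Build, annotation, strandedness and handling of reads from similar copies: not given in the sources used here. The TPM values that the authors deposited sum to 1000000 in every library and were tested. The FPKM values that the authors deposited served as an alternative. The coverage signal that the authors deposited gave the implied depth, through its ratio to FPKM. There are no read counts, so no counting intervals are given.

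Loci reaching 1 TPM in 2 or more libraries were kept, and log2(TPM + 1) was fitted with limma 3.58.1 (R 4.3.3), with trended moderation, two-sided p-values and Benjamini-Hochberg adjustment over 23699 loci. Each pairwise comparison used its own groups, since drought libraries spread more than normal ones. The interaction used all 11. The fits were tested on simulated data. Alternatives were 1 spread over all libraries, group weights, median-ratio scaling, FPKM, a pseudocount of 0.1, no filter, a filter of 5 TPM, a replicate block and leaving out each library.

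The clock genes and lists were chosen with earlier results of these data known. Clock gene names are those given with the loci. The RefSeq table (ASM3414082v1) held the symbol of 8 of the 10 on the same chromosome within 5 Mb, 7 of them with a length ratio of 0.9 to 1.1. It held no symbol for PRR59, and the match of ELF3-2 was refused. Genes outside the clock are named only when they passed this rule in full. The text names the 10 clock genes, up to 4 named genes per list by lowest adjusted p, and loci nearest in profile to LHY, PRR1 and GI. Software for tables and plots was pandas 2.3.3, numpy 2.4.6 and matplotlib 3.10.9 under Python 3.11.15. 1 gene of the lists is not reported here.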

Additional observations from a re-analysis of the deposited data

Results flagged for a closer look

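The drought responses of 4 clock genes and of HD1 and PHYB differed between OE and WT by the interaction test over 11 libraries (limma, Benjamini-Hochberg adjustment). The OE response exceeded the WT response by 1.86 for LHY (adjusted p = 0.00226) and by 2.85 for PRR95 (adjusted p = 0.0184) on the log2 scale. It lay below the WT response for GI (interaction -1.18, adjusted p = 0.00359) and for PRR1 (interaction -0.99, adjusted p = 0.0201). HD1 had an interaction of 0.66 (adjusted p = 0.0336), with its highest level in any library at 1.37 TPM. PHYB had an interaction of -0.65 (adjusted p = 0.0327). With 3 or fewer libraries in every group, no formal test for a single outlying library was run.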

How the results depend on the processing

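Of 760 alternative values for single clock genes, 661 kept their direction and side of the threshold, 41 lost the call, 34 gained one and 24 changed sign. Of these 24 values, 1 belonged to a called result, GI with drought in WT, at 0.0714 (adjusted p = 0.53) under median-ratio scaling. The others belonged to results that were not called, and none of the 24 was called itself. Under median-ratio scaling these were PRR37 after drought (0.0359) and in the interaction (0.20), PRR59 (0.65) and ELF3-1 (0.53) with drought in OE, and ELF3-2 with drought in WT (0.24). With FPKM they were PRR59 with drought in OE (0.00292) and PRR37 in the interaction (0.0148). PRR59 with drought in OE was 0.28 under the replicate block and without both drought replicates 3, where the interaction of PRR37 was 0.0206. Leaving out 1 library gave -0.0304 to 0.183 for PRR73 and -0.312 to 0.662 for LUX between genotypes after drought. It gave -0.15 to 0.28 for PRR59 and -0.0346 to 0.68 for PRR95 with drought in OE, -0.66 to 0.18 for ELF3-2 with drought in WT, and -0.138 to 0.0634 for PRR37 and -0.85 to 0.12 for LUX in the interaction. Median-ratio scaling put the median of all genes at -0.01 with drought in OE (-0.56 on the TPM scale), at -0.01 with drought in WT (-0.35) and at -0.02 between genotypes after drought (-0.20).

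Counts of genes called moved more. Between OE and WT in normal conditions, 7102 genes became 417 when all 11 libraries shared 1 spread, with 0 clock genes called (in limma, against 3), and 2909 under a replicate block. After drought, 3464 genes became 9144 with 1 spread, 2158 with no filter and 1373 under the replicate block, with 2 clock genes called instead of 4 with no filter and under the block. Leaving out 1 library gave 4237 to 6231 genes in normal conditions, 625 to 6191 after drought (2 to 6 clock genes), 9500 to 17866 with drought in OE (16217 with all) and 1155 to 7442 for the interaction (3778 with all; 2 to 6 clock genes). The highest counts after drought and for the interaction came without WT drought replicate 3. An alternative chosen after seeing the data left out both drought replicates 3, and gave 8390 genes and 7 clock genes after drought, and 10975 genes and 8 clock genes for the interaction. Where leaving out 1 library left a single OE normal library, it was assumed to vary like the other groups.

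No pairing of libraries by replicate number was seen in the levels. Deviations of equally numbered libraries correlated between -0.132 and 0.0594. With so few libraries per group this cannot exclude that libraries were grown or processed in sets. The numbers are taken as names only. With the replicate block, the clock genes called were 2 in normal conditions, 7 with drought in OE, 5 with drought in WT and 4 for the interaction. The block also called fewer of all tested genes in normal conditions, as given above. These counts are therefore not read as a result about the clock genes. Low levels limit LUX after drought and HD1 in all groups, most of all in normal conditions, and without read counts their counting error is unknown.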
